A study of Mus musculus with 2 samples.

Results

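The genes described here encode secreted odorant-binding, lipocalin and BPI-fold proteins of the nasal glands, and the measurement is where they lie between domain boundaries in the chromosomes of olfactory sensory neurons. The list holds 9 names: Obp2a, Obp2b, Lcn3, Lcn4, Lcn11, Lcn13, Lcn14, Bpifb4 and Bpifb9a. They were chosen for the role of their proteins and not by a measured value, though with earlier results of these data known. In the RefSeq gene table Lcn13 is an older name of Obp2a and Lcn14 of Obp2b, so the 9 names stand for 7 genes, out of 21755 protein-coding genes on the autosomes and X (GENCODE M21, GRCm38). All 7 lie on chromosome 2, and each was found in the annotation.

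In situ Hi-C, which ligates DNA ends that are close together in the nucleus, was performed on primary sensory neurons of adult 129P2/OlaHsd mice of mixed sex, taken from olfactory epithelium and sorted by flow cytometry for Olfr17 (P2) from P2-GFP animals. Chromatin was fixed with 1% formaldehyde and cut with DpnII. The 2 biological replicates, of 23000 and 20000 cells, form a single group with no treatment and no other cell type beside it. The authors combined both replicates before calling boundaries, so there is 1 list of 7576 boundaries, the number of contacts behind it is not known here, and no value below has a replicate error or a test.

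Lipocalins are small secreted proteins folded into a barrel that holds a hydrophobic ligand. Those made by nasal and vomeronasal glands, the odorant-binding proteins among them, are released into the mucus that covers the olfactory neurons, where they can bind odorants and pheromones. The BPI-fold proteins, named after the bactericidal/permeability-increasing protein, are secreted lipid-binding proteins of the mouth, nose and airways. These are gland products rather than products of the sorted neurons, and no RNA was measured, so the values describe the folding of loci whose activity in these cells was not observed. Domain boundaries are places where the flanking stretches contact each other less than their surroundings do. Each one is a bin of 5 kb, its position was taken as the midpoint of the bin, and an interval is the stretch between neighbouring midpoints. The authors' boundary score has no stated unit. It reached 4.38, with a median of 0.545, and the class Strong was given at 0.5002 and above, Weak at 0.4996 and below.

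The 7 genes fell into 4 intervals. Obp2a, Obp2b, Lcn3 and Lcn11 shared one with other lipocalin genes. Lcn4, the remaining lipocalin, lay 894 kb from Lcn11 at the far end of the Notch1 interval, with 5 boundaries between them. Bpifb4 and Bpifb9a, members of one tandem BPI-fold cluster 320 kb apart, were separated by a single Weak boundary.

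**Figure D1:**
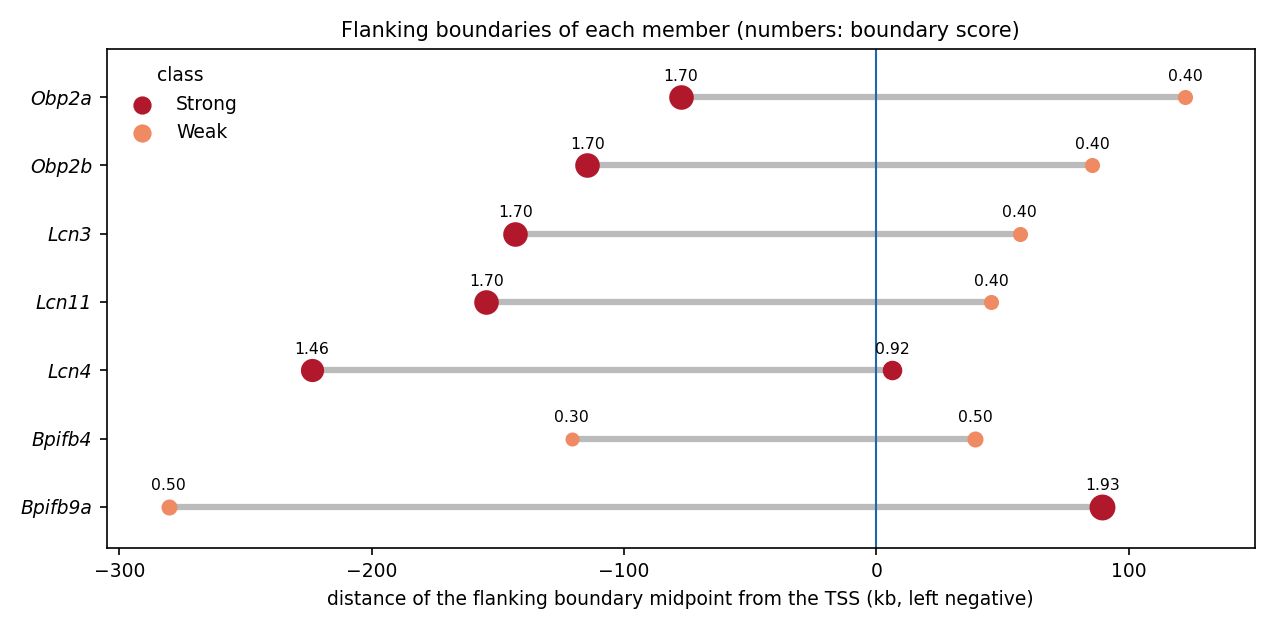
Distance (kb) from the transcription start site (TSS, blue line at 0) of each of the 7 genes to the midpoint of its left and right flanking boundary, with point area and printed number giving the authors' score and colour the class. The right-hand boundary of Lcn4 sits at 6.22 kb, the nearest of all, and the 4 genes from Obp2a to Lcn11 share the same pair of boundaries.

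Obp2a encodes an odorant-binding lipocalin and lies at chr2:25700043-25703326 (GRCm38) on the plus strand. Its TSS was 77.5 kb from the boundary on its left and 122 kb from the one on its right. Obp2b, the neighbouring odorant-binding gene (chr2:25737009-25740097, plus strand), lay 115 kb from the same left boundary and 85.5 kb from the same right one. The pair was thus the most central of the lipocalin members, at 38.8% and 57.3% of the interval counted from its left end.

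Lcn3, also called Vnsp1 for the vomeronasal secretory protein it encodes, lay at chr2:25765569-25768099 with its TSS 143 kb from the left and 56.9 kb from the right boundary. Lcn11 (chr2:25777017-25780279) followed at 155 kb and 45.5 kb. Both genes are on the plus strand and closer to the right end, a Weak boundary, than to the left end, a Strong one.

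The interval that holds these 4 genes was 200 kb long, against a median of 260 kb over all 7556 intervals, and 30.8% of all intervals were shorter. It held 12 protein-coding TSSs, and 96.7% of all intervals held fewer. Of the 112 intervals that were exactly 200 kb long, 2 held at least 12, this one included, and their median was 2. This interval was picked because it holds listed genes, so it could not have fewer than 4 TSSs, while other intervals can have none. Lipocalin genes made up 8 of the 12. Beside the 4 nasal ones these were Lcn8, Lcn5, Lcn6 and Lcn10, lipocalin genes known for expression in the epididymis, in a row from 30.6 to 60.2 kb inside the left boundary. All 8 are on the plus strand, as are 49.9% of protein-coding genes. The other 4 genes were Fcna, which encodes the lectin ficolin A, at 5.53 kb from the left boundary, Bmyc, a relative of Myc, between Obp2a and Obp2b, Gm13539 next to Lcn11, and Glt6d1, of a glycosyltransferase family, at 6.65 kb from the right boundary.

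The left end of that interval was one of the higher-scoring boundaries of the list. It covers chr2:25620001-25625000, was Strong with a score of 1.70, and 93.1% of all boundaries scored lower. The bin contains the TSS of Tmem141, 0.495 kb from its midpoint, and overlaps Fcna. To its left, in the adjoining interval of 295 kb and 22 protein-coding TSSs, lay more genes of the lipocalin family: Ptgds, the lipocalin-type prostaglandin D synthase, Lcn12, and C8g, a complement subunit. Their TSSs were 152, 129 and 121 kb from the boundary, so it separated the row from Lcn8 to Lcn11 from these 3 genes.

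The right end was Weak, with a score of 0.398 at chr2:25820001-25825000, and 36.5% of all boundaries scored lower. Here the last lipocalin gene of the row, Lcn9, has its TSS inside the bin, 0.653 kb to the right of the midpoint. At a bin size of 5 kb the side on which the Lcn9 start falls is not resolved. Between Strong boundaries alone, the interval of the 4 nasal genes was 405 kb long with 17 protein-coding TSSs, and 9 lipocalin genes, Lcn9 among them, lay in it.

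**Figure D2:**
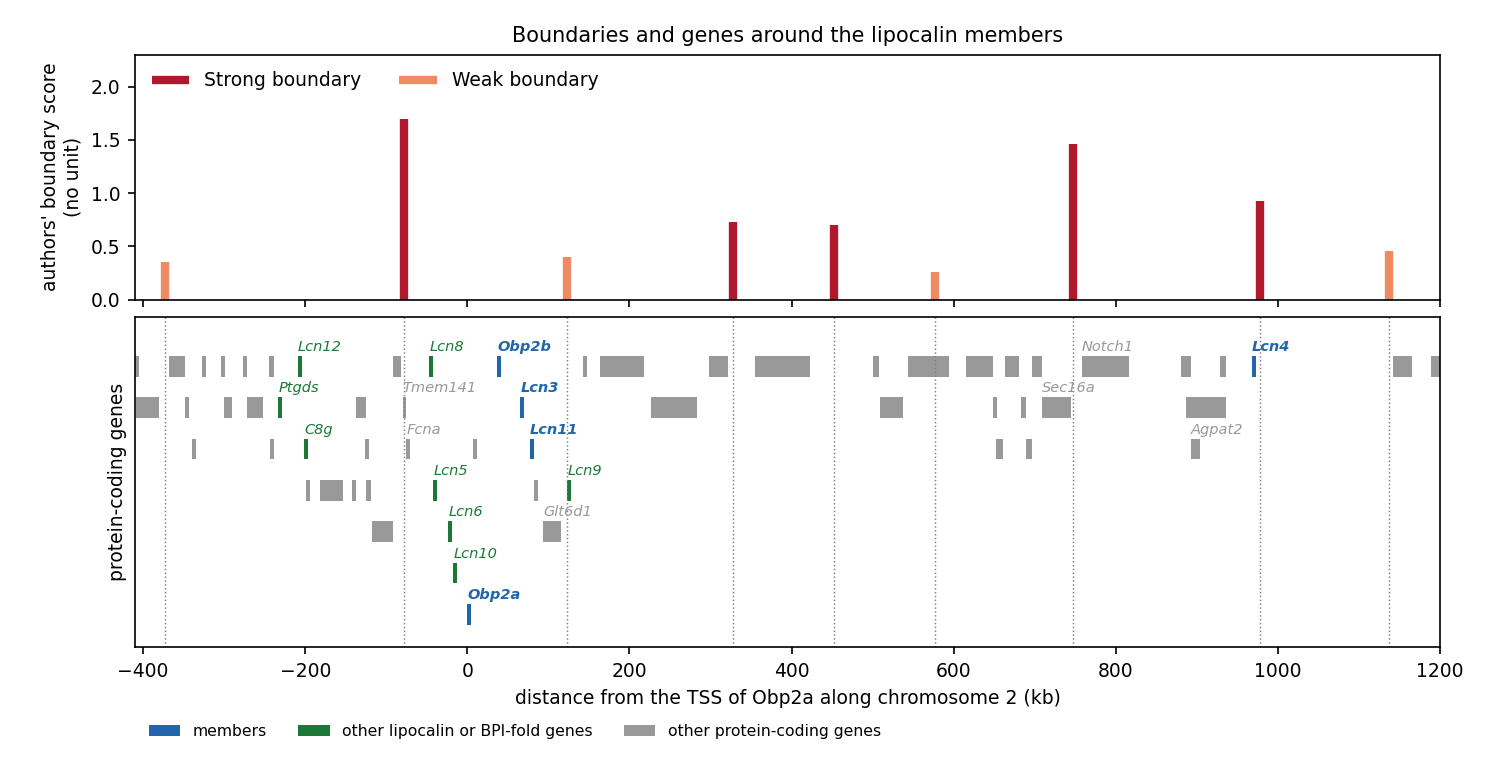
Upper panel: authors' boundary score (no unit) by class. Lower panel: protein-coding genes (blue, the genes described here; green, other genes of the listed families; grey, the rest; row height has no meaning), with dotted lines at boundaries, both against distance in kb from the Obp2a TSS. Obp2a, Obp2b, Lcn3 and Lcn11 lie between a boundary of score 1.70 and one of score 0.398, and Lcn4 lies beside the boundary of score 0.923.

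Lcn4 (Vnsp2), the second vomeronasal secretory protein gene, was placed differently. It lies at chr2:26667674-26671282 on the minus strand, and its TSS was 6.22 kb from the boundary on its right and 224 kb from the one on its left, at 97.3% of the interval. Of all protein-coding genes, 8.52% were nearer to a boundary. Both boundaries were Strong, with scores of 0.923 (chr2:26675001-26680000) on the right and 1.46 (chr2:26445001-26450000) on the left, of which the left one was higher than 89.4% of the list.

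Lcn4 shared its interval of 230 kb with no other gene of the lipocalin list. That interval held 6 protein-coding TSSs, and 14 of the 110 intervals of this length held at least as many. The 5 other protein-coding genes were Notch1, the receptor of the Notch pathway, Egfl7, a secreted factor of endothelial cells, Agpat2, an acyltransferase of phospholipid synthesis, Fam69b and Gm20532. Their TSSs lay between 49.0 and 161 kb from the boundary next to Lcn4, so Lcn4 was the last gene before it. The interval beyond that boundary was 160 kb long and held no protein-coding TSS, and the next one, that of the blood group glycosyltransferase gene Abo, was 187 kb from the boundary. At the other end the Strong boundary bin contained the TSS of Sec16a, which organises exit sites of the endoplasmic reticulum, 2.28 kb from its midpoint.

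The lipocalin members were compared by sequence. In global alignments of coding sequence, Lcn4 was 58.0% identical to Obp2b, 56.3% to Lcn3 and 56.1% to Obp2a. Lcn3 and Obp2a, which share an interval, were 54.5% identical to each other. Lcn11 was between 48.3 and 50.5% identical to every other lipocalin gene compared. Unrelated coding sequences were not aligned, so the identity that these settings give without relatedness is not known here. The closest lipocalin pair was Obp2a and Obp2b at 73.2%. Their RefSeq promoter windows (GRCm38.p6, 250 bases before to 50 after the start) were 79.0% identical in the alignment. Of its 333 columns 263 were identical and 66 were gaps. The windows are offset, as the letters that open the Obp2a window recur farther inside the Obp2b window. The offset adds gap columns, so 79.0% understates the likeness of the stretch that both windows cover. The other lipocalin promoter pairs aligned were less alike: 48.1% for Obp2a and Lcn3, 48.75% for Lcn3 and Lcn4, and 45.8% for Lcn3 and Lcn11. The promoter windows of Obp2a, Obp2b, Lcn3 and Lcn4 are shown. These are the 4 lipocalin members mutually closest in coding sequence, and they lie in 2 different intervals. Capitals mark the word TATAAA, searched on both strands. It was found in 4 of the 7 promoter windows (Obp2a, Obp2b, Lcn3 and Bpifb9a), each time on the strand of the gene, and on either strand in 13.6% of 32851 promoter windows. Lcn4 and Lcn11 had no such letters in the window. The Bpifb4 window had none either, but it is placed on a transcript start 2.65 kb downstream of the Bpifb4 TSS used here and does not cover that TSS.
Obp2a promoter: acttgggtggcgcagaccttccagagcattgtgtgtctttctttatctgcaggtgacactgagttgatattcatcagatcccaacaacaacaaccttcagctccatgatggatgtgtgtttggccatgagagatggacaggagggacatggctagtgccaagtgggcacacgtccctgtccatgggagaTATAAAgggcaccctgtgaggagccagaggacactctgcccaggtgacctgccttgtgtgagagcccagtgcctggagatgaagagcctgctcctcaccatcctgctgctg
Obp2b promoter: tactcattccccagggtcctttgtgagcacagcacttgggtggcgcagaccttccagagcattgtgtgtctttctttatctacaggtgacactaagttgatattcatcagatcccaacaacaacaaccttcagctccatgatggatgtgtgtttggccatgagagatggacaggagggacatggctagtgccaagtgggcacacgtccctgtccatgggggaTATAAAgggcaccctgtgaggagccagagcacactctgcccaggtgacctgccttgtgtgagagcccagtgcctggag
Lcn3 promoter: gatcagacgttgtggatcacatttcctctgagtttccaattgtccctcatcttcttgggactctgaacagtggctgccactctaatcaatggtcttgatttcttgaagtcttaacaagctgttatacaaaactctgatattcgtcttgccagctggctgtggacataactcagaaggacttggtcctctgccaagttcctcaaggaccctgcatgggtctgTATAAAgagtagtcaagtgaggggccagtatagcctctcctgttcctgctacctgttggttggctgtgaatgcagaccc
Lcn4 promoter: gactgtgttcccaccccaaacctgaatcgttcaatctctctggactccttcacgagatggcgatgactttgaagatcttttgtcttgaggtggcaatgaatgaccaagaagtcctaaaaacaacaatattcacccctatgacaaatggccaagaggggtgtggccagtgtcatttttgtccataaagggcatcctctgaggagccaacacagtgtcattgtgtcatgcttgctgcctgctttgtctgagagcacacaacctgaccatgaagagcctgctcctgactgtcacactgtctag
The windows run from chr2:25699824-25700123 (plus strand) for Obp2a, chr2:25736757-25737056 (plus) for Obp2b, chr2:25765283-25765582 (plus) for Lcn3 and chr2:26671233-26671532 (minus) for Lcn4. Each window is placed on 1 RefSeq transcript start, which for Obp2a was 31 bases to the right of the GENCODE start used above, for Obp2b 2 bases to its left, for Lcn3 36 bases to its left and for Lcn4 the same base. The 5' ends of the whole RefSeq gene records of Obp2a and Obp2b lie farther left. They are 2.50 and 22.9 kb from the transcript starts on which the windows are placed. In the Obp2b and Lcn3 windows TATAAA begins 28 and 29 bases before the start of the window's transcript, and in the Obp2a window 61 bases before it. The transcript start of the Obp2a window lies 31 bases to the right of the GENCODE start. TATAAA is therefore nearer to the GENCODE start of Obp2a than 61 bases. The spacing thus depends on the start chosen.

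Bpifb4, a BPI-fold gene whose rat counterpart was described in olfactory mucosa, lies at chr2:153938212-153964101 on the plus strand. Its TSS was 121 kb from a boundary on the left and 39.3 kb from one on the right. Both were Weak, with scores of 0.298 (chr2:153815001-153820000) and 0.497 (chr2:153975001-153980000). No other of the 7 genes had a Weak boundary on both sides.

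The Bpifb4 interval was 160 kb long, the shortest of the 4, and 16.7% of all intervals were shorter. It held 6 protein-coding TSSs, and 13 of the 137 intervals of this length held at least as many. Of these 6 genes 5 were BPI-fold genes, in the order Bpifb2, Bpifb6, Bpifb3, Bpifb4 and Bpifa6. The sixth was Sun5, which encodes a nuclear envelope protein of sperm, at 53.6 kb from the left boundary. That boundary lies within Efcab8, an EF-hand gene whose TSS is 37.6 kb away on the far side.

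Bpifb9a, a mouse counterpart of rat vomeromodulin, a protein of vomeronasal and nasal glands, lies at chr2:154257854-154271245 on the plus strand. Its TSS was 280 kb from the left boundary, the Weak one it shares with Bpifb4, and 89.6 kb from the right one. The right boundary (chr2:154345001-154350000) was Strong with a score of 1.93, the highest of the 7 boundaries that flank these genes, and 95.7% of the list scored lower. It lies within Cdk5rap1, an enzyme gene of mitochondrial tRNA modification whose TSS is 25.5 kb farther right.

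Every protein-coding TSS in the Bpifb9a interval belonged to a BPI-fold gene. The interval was 370 kb long (70.9% of intervals were shorter) and held 8 of them, where the 62 intervals of this length had a median of 1 and 7 held at least 8. From left to right these were Bpifa2, the parotid secretory protein gene, Bpifa3, Bpifa1, whose product is abundant in airway and nasal secretions, Bpifa5, Bpifb1, Bpifb5, Bpifb9a and Bpifb9b. All 13 BPI-fold genes of the 2 intervals are on the plus strand.

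The Weak boundary between Bpifb4 and Bpifb9a fell inside Bpifa6, 2.56 kb to the right of its TSS. Its score of 0.497 was just under the value at which the class becomes Strong, and 99.4% of Weak boundaries scored lower. It was the only boundary in the 0.446 Mb from Bpifb2 to Bpifb9b. Between Strong boundaries alone, the 13 BPI-fold genes lay together in 1 interval of 725 kb with 19 protein-coding TSSs. The division of the cluster therefore rests on this 1 Weak call in a list made without separate replicates.

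**Figure D3:**
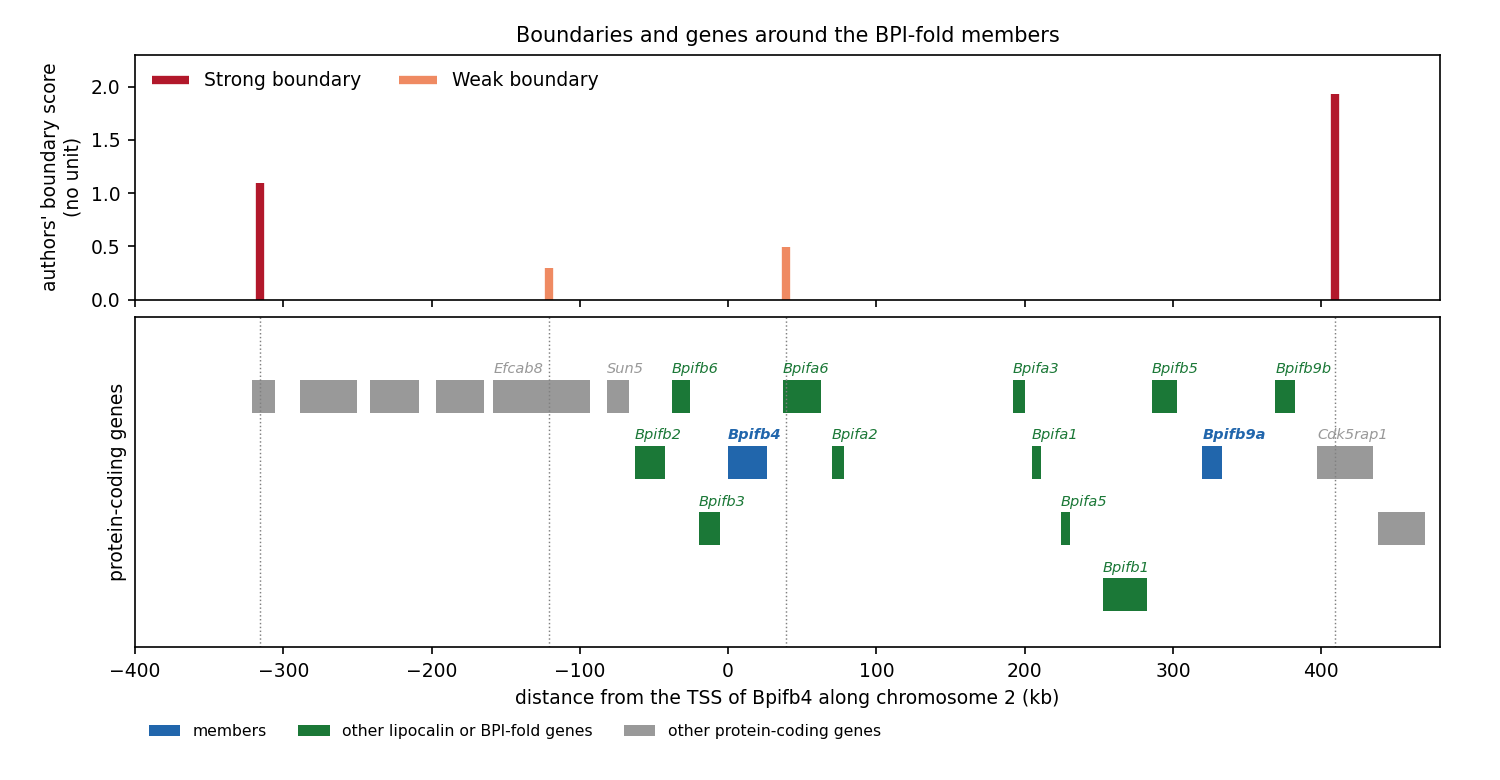
Upper panel: authors' boundary score (no unit) by class. Lower panel: protein-coding genes (blue, Bpifb4 and Bpifb9a; green, other BPI-fold genes; grey, the rest; row height has no meaning), with dotted lines at boundaries, both against distance in kb from the Bpifb4 TSS. A boundary of score 0.497 in Bpifa6 separates 5 BPI-fold genes with Bpifb4 from 8 with Bpifb9a, and the right end of the cluster has the boundary of score 1.93.

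As a group the 7 genes lay at ordinary distances from boundaries. Lcn4 was the 1 gene of the 7 with a TSS within 25 kb, where 23.9% of protein-coding genes had one, and also within 10 kb, where 11.5% did. Within 50 kb there were 3 (Lcn4, Bpifb4 and Lcn11), beside a background of 43.2%. The median distance was 56.9 kb (range 6.22 to 89.6 kb), against 59.2 kb over all protein-coding genes (quartiles 26.5 and 107 kb) and 61.7 kb over those of chromosome 2. The genes are neighbours that share boundaries, so these are not 7 independent distances.

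The 4 intervals had a median length of 215 kb, against 260 kb over all intervals and 275 kb when the median is taken over protein-coding genes. They held 6 to 12 protein-coding TSSs each, where the median interval held 2 and the interval of the median protein-coding gene held 6. The intervals of Obp2a to Lcn11 (200 kb), Lcn4 (230 kb) and Bpifb4 (160 kb) were shorter than both medians, and that of Bpifb9a (370 kb) was longer. The TSS number was 12 for Obp2a to Lcn11 and 8 for Bpifb9a, and for Lcn4 and Bpifb4 it was 6, equal to the median over protein-coding genes.

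**Figure D4:**
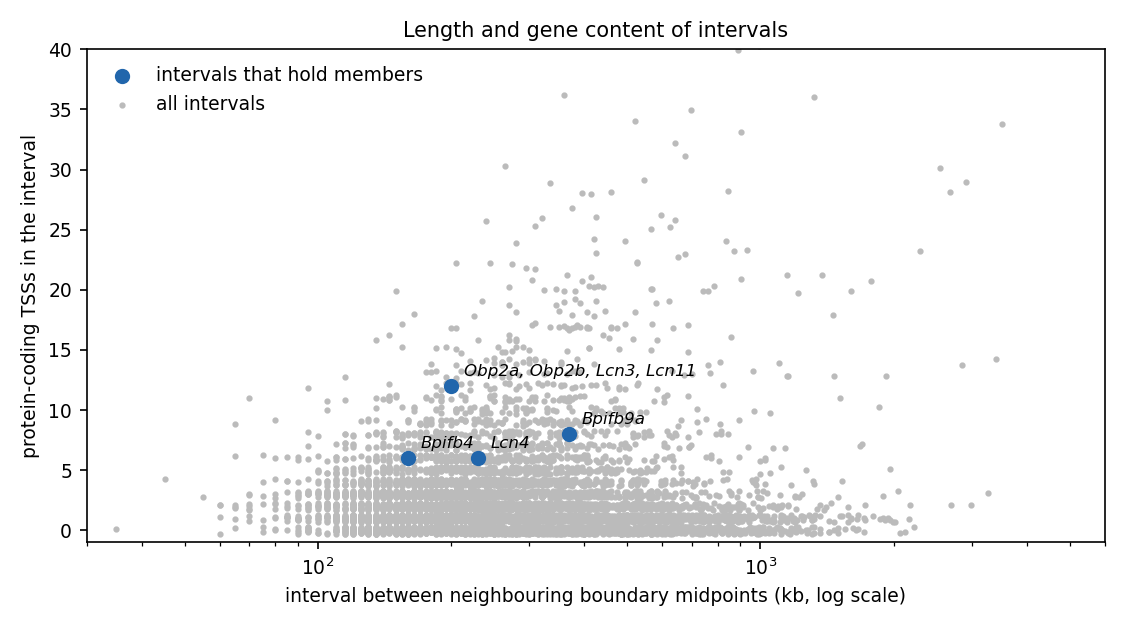
Number of protein-coding TSSs against interval length (kb, log scale) for the 4 intervals that hold the 7 genes (blue) and all 7556 intervals (grey, spread vertically within each whole number; 6 intervals with more TSSs and 1 longer than the axes show are not drawn). The interval of Obp2a, Obp2b, Lcn3 and Lcn11 has 12 TSSs in 200 kb, and that of Bpifb9a has 8 in 370 kb.

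Among the 7 flanking boundaries 4 were Strong, where 53.4% of the list is, and their median score was 0.923 against 0.545 for the list. The bins of 6 overlapped a protein-coding gene, where 46.0% of all boundaries do. A protein-coding TSS lay in 3 (Tmem141, Lcn9 and Sec16a), where 9.87% have one. Each of the 7 borders an interval picked for holding a listed gene, which boundaries of the whole list need not. The sets can therefore differ in gene content by selection alone. The bin next to Lcn4 was the 1 that overlapped no protein-coding gene.

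CTCF is the zinc finger protein that holds many domain borders together with cohesin, and its core consensus was searched on both strands of the reference. A match lay within 10 kb of 3 of the 7 flanking boundaries, where 58.0% of all boundaries have one. Over the sequence of chromosome 2 there were 3.70 core matches per 100 kb. The share of positions away from boundaries with a match was not computed, so 58.0% is not shown to be particular to boundaries. The stricter CTCF consensus was within 10 kb of none, beside 13.8% of the list. The boundaries with a core match were the left and right ends of the interval from Fcna to Glt6d1 and the right end of the BPI-fold cluster, while both boundaries of Lcn4 and both of Bpifb4 had none in that window. These are matches of letters, not measured binding, and a boundary without one says nothing about the protein. The 5 matches are shown because 3 of them share their letters. Capitals mark the match, with 9 bases on each side, and all are on the plus strand.
Right of the Tmem141 boundary: acctggatgCCAGAAGAGGGCatcagatcc
Left of the Lcn9 boundary: gcctgccagCCAGAAGAGGGCatcagatcc
Left of the Lcn9 boundary, nearer match: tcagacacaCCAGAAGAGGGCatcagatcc
Right of the Lcn9 boundary: gtctagacaCCACCAGAGGGCaaagatagg
Left of the Cdk5rap1 boundary: agtcatgtgCCAGGAGGTGGCccagccagg
They were found at chr2:25628463-25628474, 5.97 kb to the right of its boundary, at chr2:25813562-25813573 and chr2:25816075-25816086, 8.93 and 6.42 kb to the left of the Weak boundary at Lcn9, at chr2:25828728-25828739, 6.23 kb to its right, and at chr2:154339410-154339421, 8.09 kb to the left of the boundary in Cdk5rap1. The first 3 are identical over 21 bases from the start of the match. That word of 21 bases occurs 7198 times on the autosomes and X, and all 12 bases of each of these 3 matches are soft-masked as repeats in the reference. Such letters are typical of B2 elements, a mouse family of short interspersed repeats known to carry CTCF motifs. The words of the other 2 matches occur once each, and 0 and 5 of their 12 bases are masked.

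Whether reads can be placed in these loci was estimated from the reference. Of simulated reads of 100 bases, 86.6% were unique in the interval of Obp2a, Obp2b, Lcn3 and Lcn11, 98.0% in that of Lcn4, 97.6% in that of Bpifb4 and 89.6% in that of Bpifb9a, against 90.5% over the autosomes and X. Within the gene bodies 98.3 to 100% were unique for the 5 lipocalin genes and 99.6% for Bpifb4. Bpifb9a was the exception at 64.3%, and its coding sequence is 99.3% identical to that of Bpifb9b, 1760 of 1773 bases. Within 50 kb of the 7 flanking boundaries the share was 84.7 to 99.5%. It was lowest, at 84.7%, around the boundary next to Lcn4, followed by 86.0% around the boundary in Cdk5rap1 and 90.8% around the one at Lcn9. The part of read placement in the boundary calls was not tested.

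Other genes of the same families gave the wider picture. Of 26 other lipocalin names 22 were matched, with a median distance of 46.7 kb. Of these 22, 7 started within 25 kb of a boundary, beside 23.9% of protein-coding genes. Among the 7, Orm1, Orm2 and Orm3 lay beside the same boundary, so the distances are not independent. The nearest were Lcn9 at 0.653 kb, Mup4, a major urinary protein gene, at 3.21 kb and Orm3, an orosomucoid gene, at 3.66 kb. The farthest were Mup5 at 412 kb, Mup20 at 193 kb and Ptgds at 143 kb. Obp1a and Obp1b, the X-linked odorant-binding protein genes, lay 41.1 and 54.3 kb from a boundary in neighbouring stretches of 245 and 230 kb. All 4 major urinary protein genes of the list lay in 1 interval of 2290 kb on chromosome 4, much longer than any that held the nasal genes. Read placement was not estimated for that interval, so its part in this length was not tested.

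Of 16 other BPI-fold names 15 were matched, and 1 of the 15, Bpifa6, was within 25 kb, beside 23.9% of protein-coding genes. Their median distance was 59.8 kb. Bpifa2 at 30.8 kb and Bpifb9b at 40.3 kb were next, and Bpifa5 at 185 kb, Bpifa1 at 165 kb and Bpifb1 at 157 kb were the farthest. Of these 15 genes 11 lay in an interval with Bpifb4 or Bpifb9a, so these are not 15 independent distances.

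By the sum of the differences in left and right distance, the genes of chromosome 2 placed most like Lcn4 among 1839 others were Mga and Ppp6c, each with a sum of 5 kb, and Olfm1 with 6.58 kb. Those placed most like Bpifb9a were Lnpk with 5 kb, Catsper2 with 13.1 kb and Pdia3 with 13.2 kb.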

How the data were processed

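The deposited file is a list of domain boundaries with a class and a score. The authors called it on the contact matrix made from both replicates combined, on GRCm38 per the submitters' processing notes and the labels' design text. The caller, its window, the aligner and the contact depth are not stated in the labels or the file, and the score is used only within this list. All else was computed from the list: TSSs were the 5' ends of GENCODE M21 genes on the autosomes and X, distances ran to bin midpoints, and the interval of a gene lay between the midpoints that flank its TSS. Names were matched by symbol, then by RefSeq synonym. Coordinates are 1-based. The reference is C57BL/6J and the mice were 129P2/OlaHsd, so strain differences are not seen.

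CTCF consensus words were searched exactly on both strands. Coding sequence (longest per gene) and promoters were aligned globally with Biopython 1.88 (match 2, mismatch -1, gap opening -5, extension -1), with identity over all columns. Reads of 100 bases, every 50 bases in the loci and every 5000 genome-wide, were aligned with minimap2 2.31 and counted as unique at their origin with a mapping quality of at least 30. Distances, intervals and the motif search were checked on made-up data.

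There is 1 list and no test, and no interval of counting error can be given. The genes and gene lists were chosen with earlier results of these data known. Named are all members, the protein-coding genes of their intervals, the nearest TSS beyond each flanking boundary, the 3 nearest and 3 farthest of each list, and the 3 genes placed most like Lcn4 and Bpifb9a. Lcn12, C8g, Obp1a, Obp1b, Orm1 and Orm2 were named after their values were seen. Alternatives were Strong boundaries alone, the higher-scoring 3788 boundaries, other distances, other gene starts, bin edges, all gene types and other motif settings.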

Additional observations from a re-analysis of the deposited data

How the results depend on the processing

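With Strong boundaries alone, and likewise with the 3788 highest-scoring boundaries, the 7 genes fell into 3 intervals in place of 4. Under both settings the median distance to a boundary was 115 kb in place of 56.9 kb, the median interval was 405 kb in place of 215 kb, the median flanking score was 1.28 in place of 0.923, and 35 in place of 25 other protein-coding genes shared the intervals. Both settings keep boundaries by their score, so higher scores, longer distances and longer intervals are built into them. The median score over all Strong boundaries was 0.936. The count within 25 kb was 1 under both, with bin edges, with other gene starts and at 10 kb, and 3 at 50 kb. The median distance was 54.4 kb to bin edges and 57.0 kb from the 5' ends of RefSeq gene records, an alternative chosen after seeing the data; the 5' end of the RefSeq gene record of Obp2b lies 22.9 kb to the left of the GENCODE start. With genes of any type 40 neighbours shared the intervals. A CTCF core match lay near 0 of the 7 flanking boundaries at 5 kb and near 5 at 25 kb, in place of 3 at 10 kb. A match to the stricter consensus lay near 0. At 10 kb the shares of all boundaries were 58.0% for the core and 13.8% for the stricter consensus. Shares at 5 and 25 kb are not given here, so the counts at those distances cannot be set against the list. Within 50 kb, where 43.2% of protein-coding genes had a boundary, 11 of the 22 other lipocalin genes did, in place of 7. Of the 15 other BPI-fold genes 3 did, in place of 1. With Strong boundaries alone, 5 of the other lipocalin genes and 0 of the other BPI-fold genes were within 25 kb, beside 15.8% of protein-coding genes. These changes follow from counting fewer boundaries, other distances, other starts, other gene types or rarer motifs. No paired analysis was possible because the list was made from both replicates combined, which also leaves the spread between animals unmeasured, and no replicate could be left out.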
